A study of Mus musculus with 9 samples.

Results

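The genes described are the mouse chemokines (Ccl, Cxcl and Cx3cl1), interleukins and colony-stimulating factors, measured by RNA-sequencing in sorted mammary epithelial cells of 3 genotypes. Members were taken by symbol alone, as every gene named Ccl or Cxcl with a number or Il with a number and at most 1 further letter from a to f, Cx3cl1 and Csf1 to Csf3, which gave 75 of the 55450 genes in the count table. The symbols were those of GENCODE M21, which lists Il36a and Il36b as Il1f6 and Il1f8, so these were not among the 75. Il1f6 had at most 5 counts in a library and Il1f8 had 0. All mice were adult and nulliparous and carried K8CreERT2, a tamoxifen-inducible Cre recombinase under the promoter of the luminal keratin K8, and lsl-EYFP, a reporter that Cre switches on. Control mice carried only these (lsl-EYFP; K8CreERT2), LATS1/2-KO mice also carried floxed Lats1 and Lats2 (LATS1/2f/f), and LATS1/2-Sox9-KO mice carried floxed Sox9 in addition (LATS1/2f/f; Sox9f/f). Every mouse, controls included, received 2 mg of tamoxifen on each of 5 days, and live EYFP+ cells were sorted from dissociated mammary glands 7 days after the last dose. EYFP records that the reporter recombined in a K8-expressing cell or its ancestor, and does not by itself show that each floxed allele was lost. Each genotype had 3 libraries. Nothing in the labels says whether the 3 libraries of a group came from separate mice, so the p-values measure the spread between these libraries only.

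Chemokines are small secreted proteins that guide leukocytes through G protein-coupled receptors, and are divided into CC, CXC and CX3C classes by the spacing of their first cysteines. Interleukins and colony-stimulating factors signal through cytokine receptors and act on the survival, growth and activation of leukocytes, and some of them act on epithelium as well. Epithelial cells, the mammary epithelium among them, are known sources of many of these factors, and leukocytes make many of the same ones. The LATS1 and LATS2 kinases are the Hippo pathway enzymes that restrain the coactivators YAP and TAZ, and Sox9 is a transcription factor of luminal progenitors. The comparison with controls asks how these transcripts differ after Lats1 and Lats2 were targeted in luminal cells, and the comparison of the targeted genotypes asks what differs when Sox9 is targeted as well.

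Total counts were 44167762 to 47003587 per library in the control group (median 46719296), 50508666 to 61745346 in the group labelled LATS1/2-KO (median 57331239) and 55503365 to 61967651 in that labelled LATS1/2-Sox9-KO (median 59696754). A normalized count below is a read count divided by the library's effective size and multiplied by the mean of these sizes. Values are always listed in the order of the library numbers. Log2 fold changes (log2FC) carry their standard error (SE, n = 3 libraries per group), and adjusted p-values come from the quasi-likelihood test of edgeR after Benjamini-Hochberg adjustment across all 19395 genes that had 10 or more counts in 3 or more libraries. A gene was called higher or lower when the adjusted p was 0.05 or less and the log2FC was above 1 or below -1. The comparisons with control share the same 3 control libraries, and all 3 comparisons share libraries pairwise, so they are not independent of each other. Where a pair of fold changes is given without naming the groups, the first is LATS1/2-KO against control and the second LATS1/2-Sox9-KO against control.

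The targeted genes were read first. Lats1 had 5689, 5941 and 5953 normalized counts in control, 2088, 1921 and 2333 in LATS1/2-KO and 2055, 1843 and 1707 in LATS1/2-Sox9-KO libraries. It was 2.77-fold lower (log2FC -1.47 ± 0.11, adjusted p = 6.85e-06) in the LATS1/2-KO-labelled libraries and 3.14-fold lower (log2FC -1.65 ± 0.11, adjusted p = 2.72e-06) in those labelled LATS1/2-Sox9-KO. Lats2 had 1042, 867 and 1222 normalized counts in control, 1254, 1433 and 1721 in LATS1/2-KO and 1954, 1580 and 1239 in LATS1/2-Sox9-KO libraries. It was therefore not lower in either group, with a log2 fold change of 0.49 ± 0.20 (adjusted p = 0.0593) and 0.61 ± 0.20 (adjusted p = 0.0249), respectively, which goes against the labels. Sox9 had 23386, 19992 and 21578 normalized counts in control, 7198, 9497 and 12420 in LATS1/2-KO and 8800, 6752 and 6454 in LATS1/2-Sox9-KO libraries. Against control, Sox9 was 2.23-fold lower (log2FC -1.16 ± 0.19, adjusted p = 0.000661) in the LATS1/2-KO-labelled libraries and 2.95-fold lower (log2FC -1.56 ± 0.20, adjusted p = 9.13e-05) in those labelled LATS1/2-Sox9-KO. Sox9 differed between the targeted genotypes by -0.40 ± 0.19 (adjusted p = 0.251), and without LATS1/2-KO library 1 its fold change against control was -0.98 and no longer past the fold threshold. Counts over a whole gene include reads outside the floxed exons, and the deleted exons were not examined, so the groups are named by their labels throughout.

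The sorted cells carried the luminal markers of their label. The summed level of 8 luminal genes (Krt8, Krt18, Krt19, Epcam, Cdh1, Cldn3, Cldn4 and Cldn7) was 17937 to 19436 CPM (counts scaled by the library total) in control libraries, 19830 to 20531 in those labelled LATS1/2-KO and 26928 to 30528 in those labelled LATS1/2-Sox9-KO. Krt18 had 240456, 248022 and 258471 normalized counts in control, 383988, 428284 and 406364 in LATS1/2-KO and 788398, 718145 and 638322 in LATS1/2-Sox9-KO libraries. Krt8 had 173456, 169182 and 216455 (control), 292851, 264976 and 275756 (LATS1/2-KO) and 460640, 444360 and 430835 (LATS1/2-Sox9-KO) normalized counts. Both keratins were higher in each targeted library than in any control library. The adhesion gene Epcam, lower in each of them, had 125705, 120095 and 107869 (control), 64908, 73036 and 72774 (LATS1/2-KO) and 49376, 44439 and 49462 (LATS1/2-Sox9-KO) normalized counts. The sum was carried by Krt8 and Krt18, since 3 of the 8 genes lay above 0 against control in either targeted group, with median log2 fold changes of -0.38 and -0.17. In the LATS1/2-KO-labelled libraries Krt19 was called lower (-1.03, and -0.92, -0.83 and -0.96, not past the fold threshold, without control library 3 or LATS1/2-KO library 2 or 3), and Cdh1 (-0.43), Cldn4 (-0.48) and Cldn7 (-0.32) were not called. Krt14, a basal keratin and the most abundant gene of the myoepithelial list over all libraries, though not in control, was at 9.46 to 16.7 CPM in control libraries, 2668 to 4994 in those labelled LATS1/2-KO and 2035 to 6431 in those labelled LATS1/2-Sox9-KO. The 8 genes of that list did not move together. In the LATS1/2-KO-labelled libraries Krt14, Acta2 and Cnn1 were called higher than in control and Trp63 (log2 fold change -4.83), Myh11 (-2.22) and Mylk (-1.95) lower, with Krt5 at 0.05. In those labelled LATS1/2-Sox9-KO Krt14, Acta2 and Krt5 were called higher and Trp63, Myh11, Mylk and Oxtr lower. Of all genes tested, 17.1% and 17.8% were called higher and 17.4% and 19.5% lower in these comparisons. The call of Krt5 ended without any 1 control library or LATS1/2-Sox9-KO library 2 or 3 (log2 fold change 1.15 to 1.74), and that of Oxtr without LATS1/2-Sox9-KO library 1 or 3 (-1.88 and -1.77). Ptprc, the pan-leukocyte surface phosphatase CD45, had 40.7, 55.7 and 17.5 normalized counts in control, 166, 34.7 and 10.9 in LATS1/2-KO and 84.4, 29.9 and 107 in LATS1/2-Sox9-KO libraries, with overlapping groups and a log2 fold change against control of 0.89 ± 0.87 (adjusted p = 0.417) and 0.96 ± 0.87 (adjusted p = 0.374).

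Of the 75 members, 43 had enough counts to be compared. These were 13 of 25 CC chemokine genes, 12 of 13 Cxcl genes, Cx3cl1, 14 of 33 interleukins and the 3 colony-stimulating factors. Of the 43, 25 reached 10 counts in each of the 9 libraries, and 7 (Ccl17, Ccl4, Ccl7, Ccl8, Csf2, Cxcl11 and Il1a) reached it in no control library, so that these 7 passed only through the targeted groups. Ccl2, Ccl20, Cxcl3, Il17c, Il1b and Il24 were under 10 counts in at least 1 control library, so they too needed targeted libraries to pass. On a scale per transcript length (TPM, counts divided by exon length and scaled to a common total), the most abundant members in control libraries were Cxcl1 (259 TPM on average), Cxcl15 (212), Cx3cl1 (192), Csf3 (140), Cxcl17 (124), Il33 (119) and Cxcl16 (102). In the LATS1/2-KO-labelled libraries the order of mean TPM was Cxcl16 (247), Cxcl1 (212), Csf1 (112), Cxcl10 (81.2), Cx3cl1 (48.7), Il34 (47.1) and Il23a (43.3). In those labelled LATS1/2-Sox9-KO it was Cxcl16 (377), Cxcl10 (294), Cxcl1 (254), Ccl5 (218), Csf1 (109), Csf3 (41.1) and Cxcl5 (38.9). This order rested in part on library 1 of that group, without which Cxcl10 averaged 172 TPM, below Cxcl1 (217), and Ccl5 127 TPM. Likewise Il33 averaged 56.2 TPM in control without control library 3. Cxcl1 and Cxcl16 were thus among the leading members in each group. The summed TPM of all 75 members was 1336 ± 182 (SD, n = 3) in control, 1117 ± 133 in the group labelled LATS1/2-KO and 1638 ± 587 in that labelled LATS1/2-Sox9-KO. The CC chemokines alone summed to 20.6, 17.7 and 16.1 TPM in the control libraries, to 75.2, 118 and 109 in those labelled LATS1/2-KO and to 469, 210 and 156 in those labelled LATS1/2-Sox9-KO. Ccl5 carried the step between the targeted genotypes. Without it the sums were 13.6 to 19.7 TPM in control, 50.7 to 75.4 in the LATS1/2-KO-labelled libraries and 56.6 to 68.9 in those labelled LATS1/2-Sox9-KO, so that the targeted groups overlapped.

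Against control, 20 members were called higher in the LATS1/2-KO-labelled libraries, where 17.1% of all genes tested were called higher, and 9 were called lower, where 17.4% of all genes were. One more, Ccl27a, passed the adjusted p but not the fold threshold, and 13 did not pass the test. In the LATS1/2-Sox9-KO-labelled libraries, 23 members were called higher against a background of 17.8% and 8 lower against 19.5%, and 12 did not pass the test. Without the 7 members that reached 10 counts in no control library, 15 and 17 of the other 36 were called higher and 9 and 8 lower. These counts still hold members that passed the filter with the help of targeted libraries. They are Ccl2, Ccl20 and Il24, called higher in both comparisons, and Cxcl3, called higher in the second. Between the targeted genotypes, 8 members were called higher in the LATS1/2-Sox9-KO-labelled libraries against a background of 1.57%, and Cxcl14 was called lower against 2.16%. Cxcl16 passed the adjusted p but not the fold threshold there, and 33 members did not pass the test. Without LATS1/2-KO library 3 the members called higher numbered 4 and without LATS1/2-Sox9-KO library 2 they numbered 2, and Cxcl14 lost its call in both cases. Tested against a fold change of 2 with edgeR's glmTreat, none of the 43 passed between these genotypes, while 9 had an unadjusted p under 0.05 in the higher direction and 1 in the lower. The median log2 fold change of the members was 1.33, 2.06 and 0.16 in the 3 comparisons, beside 0.04, 0.02 and -0.02 for all genes tested, and includes the 7 members that no control library held at 10 counts. With Cxcl11 and Ccl8, which had no control counts, at their lower bounds, the medians against control were 1.30 and 1.98.

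**Figure D1:**
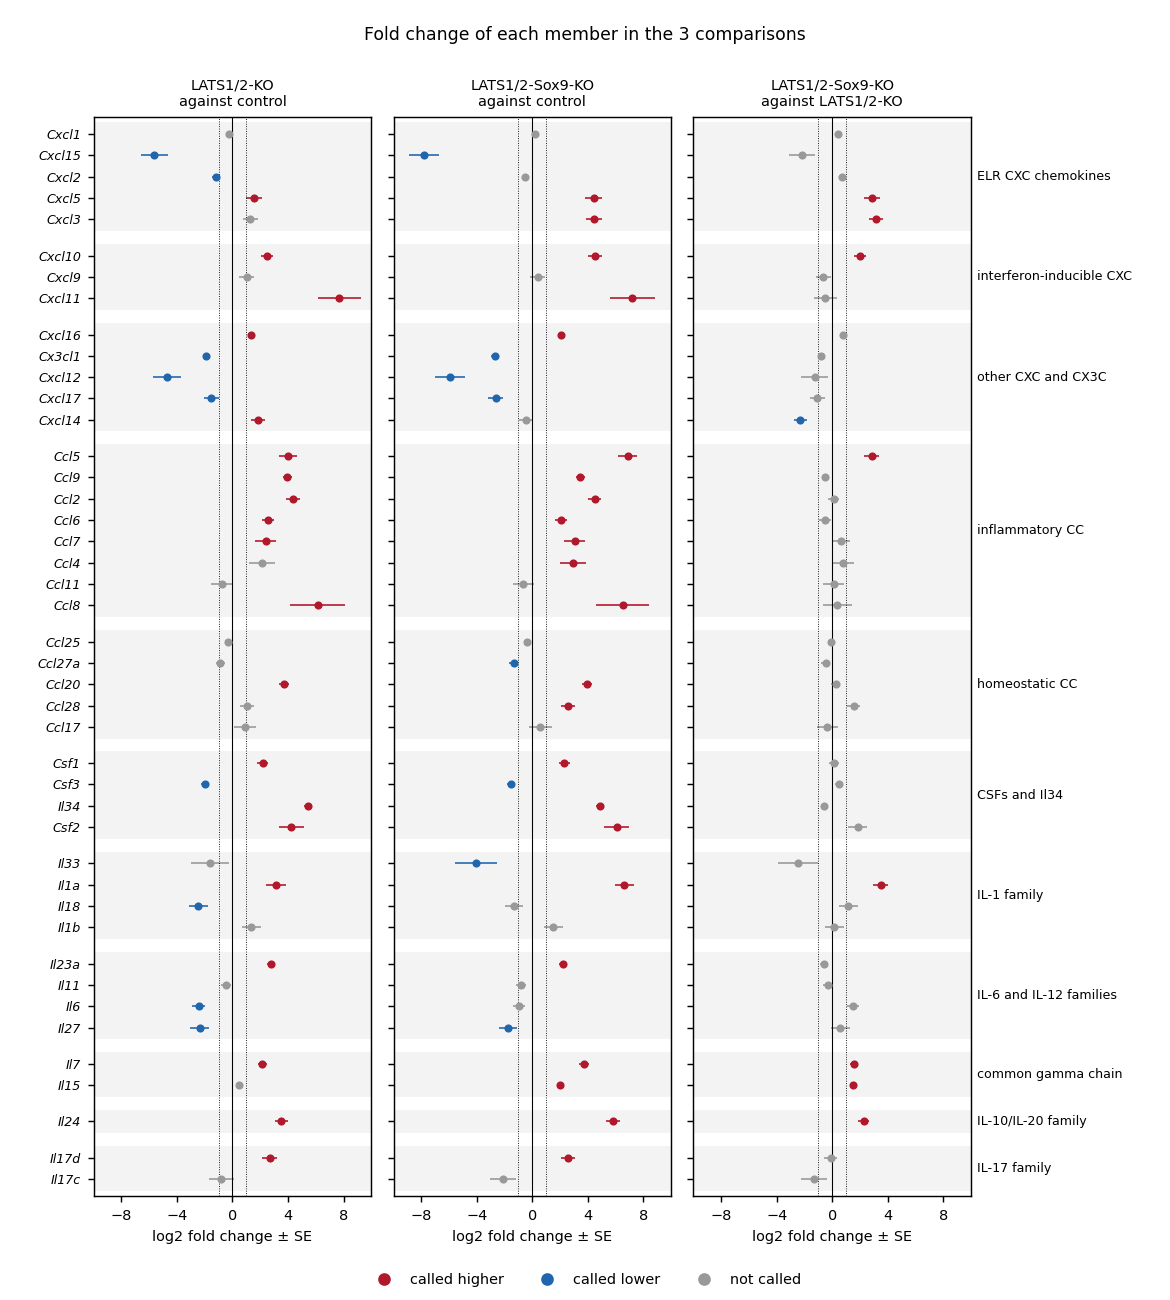
Log2 fold changes (x axis) of the 43 members with enough counts, 1 panel per comparison and 1 row per member, grouped by role, with bars for ± 1 SE and dotted lines at -1 and 1. Red and blue points are members called higher and lower, grey points were not called, and the right-hand panel holds 9 called members where the panels against control hold 29 and 31.

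By pattern, 13 members rose against control in both targeted genotypes with no call between them, namely Ccl2, Ccl20, Ccl6, Ccl7, Ccl8, Ccl9, Csf1, Csf2, Cxcl11, Cxcl16, Il17d, Il23a and Il34. Another 6, Ccl5, Cxcl10, Cxcl5, Il1a, Il24 and Il7, rose against control in both and were called higher again in the LATS1/2-Sox9-KO-labelled libraries than in those labelled LATS1/2-KO. Cxcl3 and Il15 were called higher only with Sox9 targeted as well, against both control and LATS1/2-KO. Csf3, Cx3cl1, Cxcl12, Cxcl15, Cxcl17 and Il27 fell in both targeted genotypes. Cxcl2, Il18 and Il6 were called lower in the LATS1/2-KO-labelled libraries but not in those labelled LATS1/2-Sox9-KO, and the difference between the targeted genotypes did not pass the test for any of these 3.

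**Figure D2:**
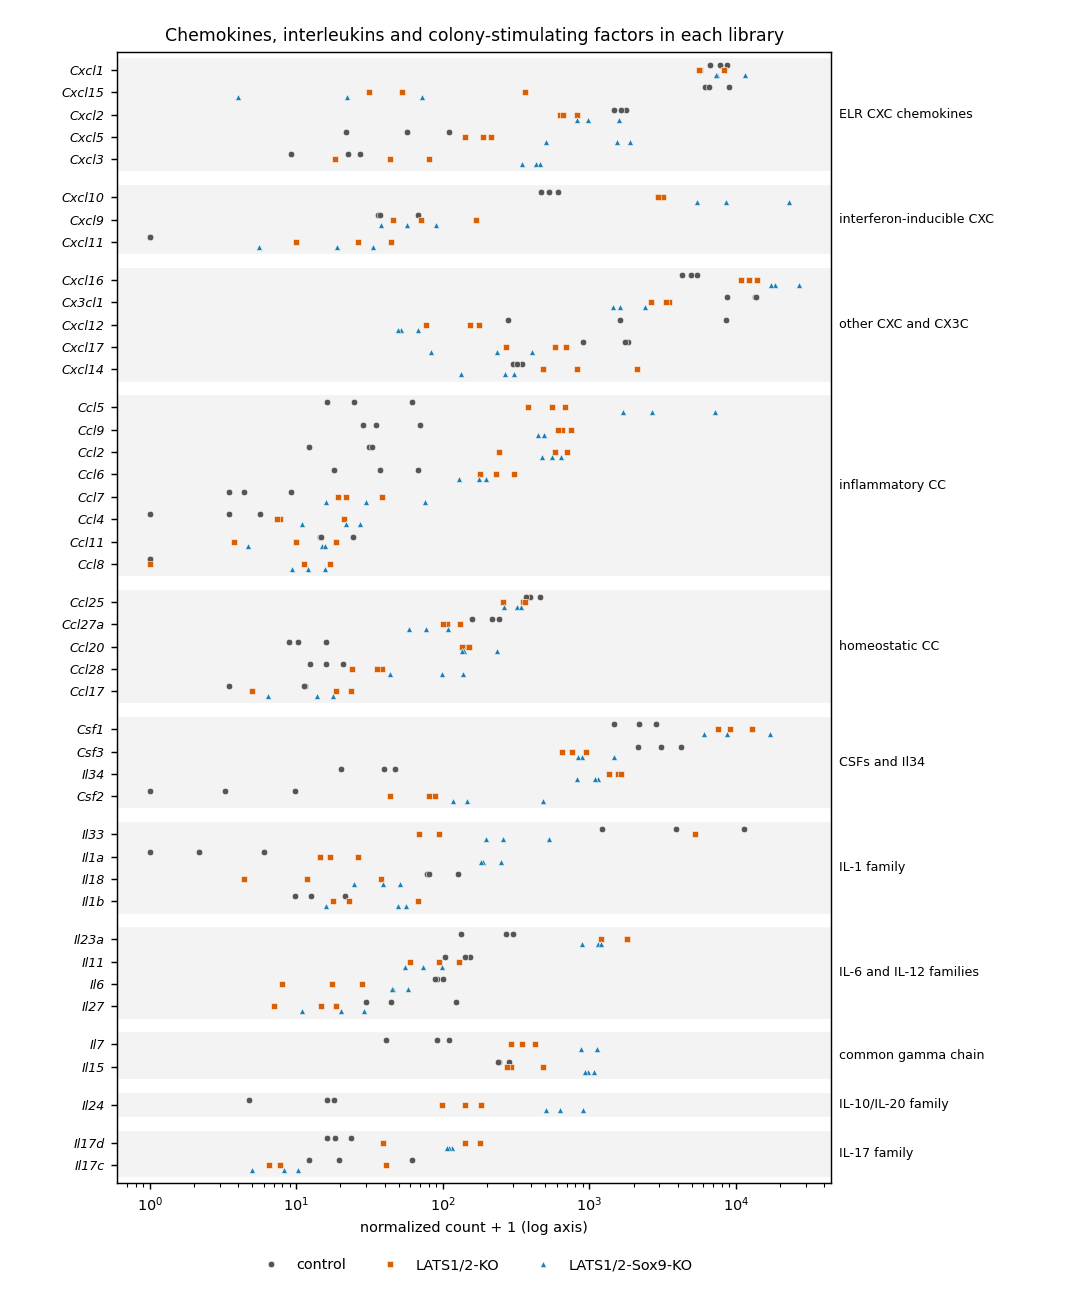
Normalized counts plus 1 (x axis, log scale) of the 43 members with enough counts, 1 row per member grouped by role, with 1 point per library coloured and shaped by group. Ccl5, Cxcl10 and Il24 step up from control to LATS1/2-KO to LATS1/2-Sox9-KO with no overlap, and Cxcl12 and Il33 spread widely within the control libraries.

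The CXC chemokines with an ELR motif before the first cysteine signal through CXCR2 and attract neutrophils. Of their genes, the 5 that the naming rule takes lie in 1 cluster on chromosome 5 between positions 90759360 and 90905938 (GRCm38), in the order Cxcl5, Cxcl3, Cxcl15, Cxcl1 and Cxcl2, with Ppbp and Pf4 between Cxcl5 and Cxcl3, and they did not move as 1 block. Cxcl15 (lungkine), the second most abundant member in control cells, had 6112, 6510 and 8902 normalized counts in control, 361, 30.5 and 51.9 in LATS1/2-KO and 21.3, 2.99 and 71 in LATS1/2-Sox9-KO libraries. All 6 targeted libraries were below the control range, Cxcl15 being 49-fold lower (log2FC -5.62 ± 0.97, adjusted p = 0.000801) in the LATS1/2-KO-labelled libraries and 222-fold lower (log2FC -7.79 ± 1.10, adjusted p = 0.000196) in those labelled LATS1/2-Sox9-KO. Its size rested in part on single libraries, with log2 fold changes of -7.45 without LATS1/2-KO library 1 and -9.16 without LATS1/2-Sox9-KO library 3. Cxcl2 had 1459, 1781 and 1651 (control), 820, 632 and 658 (LATS1/2-KO) and 1579, 827 and 979 (LATS1/2-Sox9-KO) normalized counts, and was 2.32-fold lower (log2FC -1.21 ± 0.23, adjusted p = 0.00145) in the LATS1/2-KO-labelled libraries. In those labelled LATS1/2-Sox9-KO, where 1 library lay within the control range, its log2 fold change was -0.53 ± 0.23 (adjusted p = 0.0708). Cxcl1, the most abundant member in control cells, had 6692, 7813 and 8710 (control), 8342, 5652 and 5631 (LATS1/2-KO) and 11580, 7407 and 7266 (LATS1/2-Sox9-KO) normalized counts. Its groups overlapped, and its log2 fold changes against control of -0.24 ± 0.22 (adjusted p = 0.368) and 0.18 ± 0.22 (adjusted p = 0.507) did not pass the test.

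Cxcl3 had 8.14, 21.6 and 26.2 normalized counts in control, 79.2, 42.3 and 17.3 in LATS1/2-KO and 346, 428 and 461 in LATS1/2-Sox9-KO libraries. The LATS1/2-Sox9-KO-labelled libraries all lay above the other 6, and Cxcl3 was 22-fold higher (log2FC 4.46 ± 0.58, adjusted p = 0.00011) against control and 8.91-fold higher (log2FC 3.16 ± 0.53, adjusted p = 0.0121) against LATS1/2-KO. The latter call was lost without LATS1/2-Sox9-KO library 2 (log2 fold change 3.15, adjusted p = 0.0508), and the value was 3.78 without LATS1/2-KO library 1. Cxcl5 had 20.9, 55.7 and 110 (control), 188, 212 and 140 (LATS1/2-KO) and 505, 1535 and 1902 (LATS1/2-Sox9-KO) normalized counts, again with the LATS1/2-Sox9-KO-labelled libraries above all others. It was 21.2-fold higher (log2FC 4.41 ± 0.63, adjusted p = 0.000204) against control (5.10 without control library 3) and 7.28-fold higher (log2FC 2.86 ± 0.57, adjusted p = 0.0213) against LATS1/2-KO. That last call ended without LATS1/2-KO library 3 (2.71, adjusted p = 0.0849) and without LATS1/2-Sox9-KO library 2 (2.76, adjusted p = 0.0737) or 3 (2.50, adjusted p = 0.0606). In the LATS1/2-KO-labelled libraries, Cxcl5 was 2.91-fold higher (log2FC 1.54 ± 0.58, adjusted p = 0.0446) than in control. This call was near the threshold. It ended without control library 1 (1.13, adjusted p = 0.116) or 2 (1.47, adjusted p = 0.114), without LATS1/2-KO library 1 (1.51, adjusted p = 0.0784), 2 (1.40, adjusted p = 0.106) or 3 (1.69, adjusted p = 0.057). It also ended without LATS1/2-Sox9-KO library 2 (1.53, adjusted p = 0.0614), and the value was 2.22 without control library 3.

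**Figure D3:**
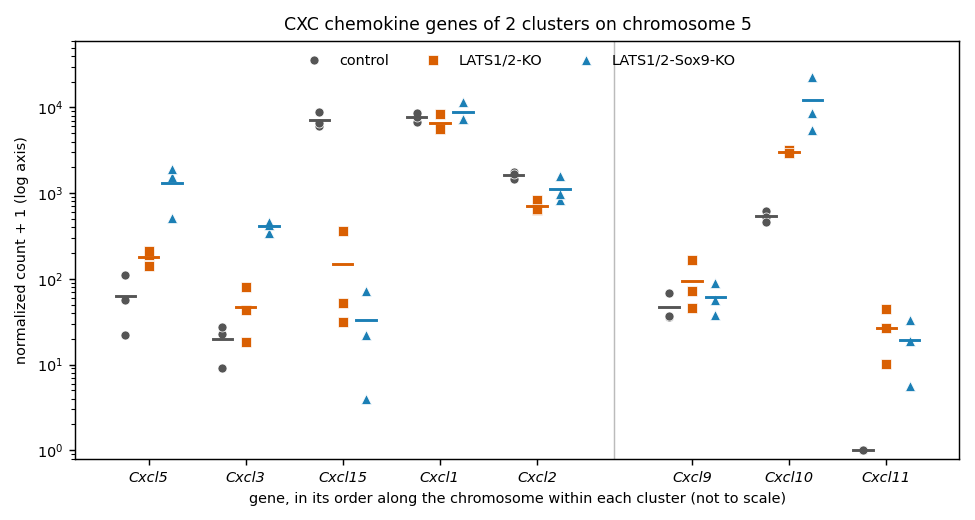
Normalized counts plus 1 (y axis, log scale) of 5 ELR CXC genes of 1 cluster and of Cxcl9, Cxcl10 and Cxcl11, in their order along chromosome 5 (x axis, not to scale), with 1 point per library and a bar at the group mean. Cxcl15 is lower in all targeted libraries, while the libraries of Cxcl1 overlap and Cxcl3 and Cxcl5 are highest in the LATS1/2-Sox9-KO libraries.

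The sequences before the start sites of these genes are shown because genes of 1 family in 1 cluster differed in direction, and those of Cxcl10 and Csf1 because they rose with large group means. A RefSeq promoter entry was found for 27 of the 43 members. Cxcl5, which rose in the same cluster, had none and is not shown. The letters searched were chosen after the values were seen. Capitals mark matches to GGGNNNTTCC on either strand, the type of sequence that NF-kB proteins bind, and in Cxcl10 also a match to GAAANNGAAA, the type bound by interferon-regulated factors. Where matches overlap, they form 1 run of capitals. Each sequence holds up to 250 bases before the RefSeq start on the gene's own strand (GRCm38.p6): Cxcl3 at chr5:90785851-90786100 (+), Cxcl15 at chr5:90794284-90794533 (+), Cxcl1 at chr5:90890995-90891240 (+), Cxcl2 at chr5:90903649-90903870 (+), Cxcl10 at chr5:92348890-92349139 (-) and Csf1 at chr3:107760470-107760719 (-).
Cxcl3: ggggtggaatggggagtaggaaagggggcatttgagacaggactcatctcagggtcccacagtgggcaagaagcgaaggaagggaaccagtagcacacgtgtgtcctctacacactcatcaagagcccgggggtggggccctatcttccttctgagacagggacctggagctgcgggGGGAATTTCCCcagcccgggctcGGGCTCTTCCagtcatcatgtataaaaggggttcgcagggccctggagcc
Cxcl15: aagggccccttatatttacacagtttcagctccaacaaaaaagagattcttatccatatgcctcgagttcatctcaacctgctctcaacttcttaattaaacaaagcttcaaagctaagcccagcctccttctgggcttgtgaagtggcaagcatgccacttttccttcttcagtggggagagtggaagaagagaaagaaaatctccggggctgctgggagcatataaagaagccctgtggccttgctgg
Cxcl1: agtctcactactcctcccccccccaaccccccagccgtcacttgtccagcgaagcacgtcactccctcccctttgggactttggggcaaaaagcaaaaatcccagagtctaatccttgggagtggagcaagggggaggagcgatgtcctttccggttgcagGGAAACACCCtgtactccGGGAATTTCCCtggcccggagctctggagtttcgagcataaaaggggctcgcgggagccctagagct
Cxcl2: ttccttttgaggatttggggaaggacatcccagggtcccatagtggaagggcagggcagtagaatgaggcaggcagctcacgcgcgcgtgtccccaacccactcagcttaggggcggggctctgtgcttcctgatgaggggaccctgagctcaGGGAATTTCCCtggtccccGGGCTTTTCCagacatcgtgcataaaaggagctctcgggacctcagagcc
Cxcl10: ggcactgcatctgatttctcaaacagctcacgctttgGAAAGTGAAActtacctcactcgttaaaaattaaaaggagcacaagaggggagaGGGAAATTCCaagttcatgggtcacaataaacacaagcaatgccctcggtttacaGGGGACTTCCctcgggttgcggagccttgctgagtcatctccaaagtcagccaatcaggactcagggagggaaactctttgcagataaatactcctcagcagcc
Csf1: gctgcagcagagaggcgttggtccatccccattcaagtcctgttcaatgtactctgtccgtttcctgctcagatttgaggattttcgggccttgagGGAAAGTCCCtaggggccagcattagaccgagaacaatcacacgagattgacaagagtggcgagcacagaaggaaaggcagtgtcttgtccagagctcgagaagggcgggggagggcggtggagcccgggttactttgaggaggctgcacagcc

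Cxcl1, Cxcl2 and Cxcl3 share the run GGGAATTTCCC, which begins 71, 97 and 73 bases before their RefSeq starts. The printed sequences leave out bases inside the annotated gene, 4 for Cxcl1 and 28 for Cxcl2. Positions are counted from the RefSeq start and include these bases, so they cannot be compared directly with the printed ends. Cxcl15, which lies between Cxcl3 and Cxcl1, has no match to these letters in this window. Cxcl10 has GGGAAATTCC 159 bases and GGGGACTTCC 104 bases before its start, and the interferon-type match GAAAGTGAAA 213 bases before it, and its window lies inside the gene Art3 on the other strand but in no exon. Csf1 has 1 match, read as GGAAAGTCCC on its own strand, 154 bases before its start. Of all 32851 promoter windows of the same kind, 4.65% hold the NF-kB-type letters, and 8 of the 27 member genes with an entry do: Ccl20, Ccl9, Csf1, Cxcl1, Cxcl10, Cxcl2, Cxcl3 and Il6. These 8 genes include members that rose, fell and did not pass the test. The interferon-type letters are in 2.98% of all windows and in those of Cxcl10 and Cxcl14. TGANTCA, the AP-1 type, is in 6.75% of windows and in 6 member genes (Ccl27a, Ccl9, Cxcl10, Il11, Il1a and Il6). GGAATG, the letters bound by the TEAD partners of YAP and TAZ, is in 12.6% of windows and in 5 member genes (Ccl17, Ccl20, Csf2, Cxcl3 and Il33). A match describes letters in a window and shows no binding.

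Cxcl9, Cxcl10 and Cxcl11 are the interferon-inducible ligands of CXCR3, the receptor of activated T and NK cells, and lie together on chromosome 5. Cxcl10 had 610, 527 and 465 normalized counts in control, 2958, 3163 and 2954 in LATS1/2-KO and 22844, 8600 and 5396 in LATS1/2-Sox9-KO libraries. The groups did not overlap. Cxcl10 was 5.66-fold higher (log2FC 2.50 ± 0.44, adjusted p = 0.000878) in the LATS1/2-KO-labelled libraries than in control and 23-fold higher (log2FC 4.52 ± 0.48, adjusted p = 2.98e-05) in those labelled LATS1/2-Sox9-KO. Library 1 of the latter was far above the others, and the value without it was 3.72. With Sox9 targeted as well it was 4.06-fold higher (log2FC 2.02 ± 0.43, adjusted p = 0.0252) than without. This call was lost without LATS1/2-KO library 2 (2.07, adjusted p = 0.0605) or 3 (2.00, adjusted p = 0.0902) or without LATS1/2-Sox9-KO library 2 (2.24, adjusted p = 0.0534), and the value was 1.23 without LATS1/2-Sox9-KO library 1. Cxcl11 had no count in any control library and 4.55 to 43.2 normalized counts in the targeted libraries. It was at least 7.3-fold higher in those labelled LATS1/2-KO (adjusted p = 0.0036) and at least 5.16-fold higher in those labelled LATS1/2-Sox9-KO (adjusted p = 0.00515), against a floor of 3 counts per control library. Without LATS1/2-KO library 2 and LATS1/2-Sox9-KO library 1, respectively, its fitted log2 fold change moved from 7.71 to 7.08 and from 7.20 to 6.49. Cxcl11 is annotated as a polymorphic pseudogene. Gm2673 on the other strand shares 1582 exon bases with Cxcl11 and was at 0 normalized counts in all groups. How reads in these bases were assigned was not settled here, which limits the Cxcl11 counts and bounds. Cxcl9 had 34.9, 67.1 and 36.2 (control), 167, 70.3 and 44.6 (LATS1/2-KO) and 88.1, 36.8 and 55.5 (LATS1/2-Sox9-KO) normalized counts, with overlapping groups and log2 fold changes of 1.02 ± 0.55 (adjusted p = 0.138) and 0.38 ± 0.55 (adjusted p = 0.572). An exon of Art3 overlaps Cxcl10 by 133 bases on the other strand, and Art3 itself was at 10.5 to 48.3 normalized counts.

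The other CXC and CX3C chemokines moved in both directions. Cxcl16, a membrane-anchored ligand of CXCR6 that also takes up oxidised lipids, had 5460, 4931 and 4296 normalized counts in control, 13811, 12309 and 10788 in LATS1/2-KO and 26920, 18356 and 17412 in LATS1/2-Sox9-KO libraries. The groups did not overlap, and Cxcl16 was 2.51-fold higher (log2FC 1.33 ± 0.18, adjusted p = 0.00017) and 4.27-fold higher (log2FC 2.09 ± 0.18, adjusted p = 9.54e-06) against control in the groups labelled LATS1/2-KO and LATS1/2-Sox9-KO, with a log2FC of 0.76 ± 0.18 (adjusted p = 0.0348) between them. An exon of Zmynd15 on the other strand shares 552 bases with Cxcl16. Zmynd15 itself was at 207 to 299 normalized counts in the targeted libraries and 324 to 501 in control. Cxcl14, an epithelial chemokine, had 344, 298 and 319 (control), 481, 2108 and 823 (LATS1/2-KO) and 131, 264 and 305 (LATS1/2-Sox9-KO) normalized counts, and was 3.55-fold higher (log2FC 1.83 ± 0.50, adjusted p = 0.0102) in the LATS1/2-KO-labelled libraries than in control. Library 2 of that group was the highest of all, and without it the value was 1.01 (adjusted p = 0.0413). Cxcl14 was 4.88-fold lower (log2FC -2.29 ± 0.50, adjusted p = 0.0291) in the LATS1/2-Sox9-KO-labelled libraries than in those labelled LATS1/2-KO. That call ended without LATS1/2-KO library 2 (-1.46, adjusted p = 0.0557) or 3 (-2.47, adjusted p = 0.0597) and without LATS1/2-Sox9-KO library 1 (-1.98, adjusted p = 0.0892), 2 (-2.36, adjusted p = 0.0991) or 3 (-2.53, adjusted p = 0.0582). Its log2FC against control there was -0.46 ± 0.49 (adjusted p = 0.448). A list of 6 adipocyte markers was at 9.68, 70.3 and 33.6 CPM in the LATS1/2-KO-labelled libraries, the order of Cxcl14 there. It was at 1.5, 22.8 and 20.3 CPM in those labelled LATS1/2-Sox9-KO, where the orders differed. The part of adipocyte RNA in the Cxcl14 values was not tested.

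Cx3cl1 (fractalkine), a membrane-anchored chemokine of epithelium and endothelium, had 13572, 13693 and 8699 normalized counts in control, 3504, 2620 and 3349 in LATS1/2-KO and 2409, 1619 and 1453 in LATS1/2-Sox9-KO libraries. All targeted libraries were below all control libraries, with Cx3cl1 3.8-fold lower (log2FC -1.92 ± 0.23, adjusted p = 8.92e-05) and 6.56-fold lower (log2FC -2.71 ± 0.24, adjusted p = 1.03e-05) in the groups labelled LATS1/2-KO and LATS1/2-Sox9-KO. Cxcl17, a mucosal chemokine, had 898, 1842 and 1746 (control), 694, 267 and 579 (LATS1/2-KO) and 81.6, 233 and 406 (LATS1/2-Sox9-KO) normalized counts. It was 6.22-fold lower (log2FC -2.64 ± 0.56, adjusted p = 0.00244) in the LATS1/2-Sox9-KO-labelled libraries than in control (-3.25 without library 3 of that group). In those labelled LATS1/2-KO it was 2.92-fold lower (log2FC -1.54 ± 0.54, adjusted p = 0.0321). That call ended without control library 2 (-1.37, adjusted p = 0.0919) or 3 (-1.43, adjusted p = 0.0765) and without LATS1/2-KO library 2 (-1.24, adjusted p = 0.0965) or 3 (-1.64, adjusted p = 0.0654). Cxcl12, the ligand of CXCR4 and in many tissues a product of stromal cells, had 278, 1625 and 8489 (control), 175, 76.2 and 152 (LATS1/2-KO) and 51, 48.8 and 66.4 (LATS1/2-Sox9-KO) normalized counts. Its control libraries spread widely, and the targeted libraries all lay below them. Cxcl12 was 25.8-fold lower (log2FC -4.69 ± 1.01, adjusted p = 0.00285) and 62.3-fold lower (log2FC -5.96 ± 1.08, adjusted p = 0.000948), and without control library 3 these log2 fold changes were -2.84 and -4.09. Dcn, the most abundant gene of a list of 8 fibroblast markers, was at 29.8, 62.1 and 148 CPM in the same control libraries, so that Cxcl12 and Dcn had the same order there. It was at 26.1, 5.52 and 22.2 CPM and 0.484, 2.16 and 5.98 CPM in the targeted groups. Other genes of the list went the other way. Col1a1 (log2 fold changes 1.90 and 2.37), Col1a2 (2.30 and 2.56) and Col3a1 (3.13 and 3.04) were called higher than control in both targeted groups, the first call of Col1a1 ending without control library 1 (1.80) or LATS1/2-KO library 1 (0.80). Without LATS1/2-KO library 1 the first values of Col1a2 and Col3a1 were 1.27 and 2.09. Those of Col3a1 were 4.03 and 3.96 without control library 3, and the second was 2.45 without LATS1/2-Sox9-KO library 3. The part of fibroblast RNA in the Cxcl12 difference was not tested.

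The inflammatory CC chemokines attract monocytes, macrophages, T cells and eosinophils through chemokine receptors on these cells. Of the 13 genes in this class 8 had enough counts, and 6 rose in the LATS1/2-KO-labelled libraries and 7 in those labelled LATS1/2-Sox9-KO, none falling, where 17.1% and 17.8% of all genes tested were called higher. Ccl4, Ccl7 and Ccl8 reached 10 counts in no control library and so entered through the targeted groups, and of the other 5 genes 4 rose in each group. Ccl2, among these 5, had 9 counts in control library 3 and so also needed targeted libraries to enter. A list of 15 macrophage markers, described further on, summed to 19.1 to 25.6 CPM in control and 55.3 to 132 CPM in the targeted libraries. Without Csf1r, its most abundant gene over all libraries, the list summed to 16.5 to 21.8 and 21.8 to 76.4 CPM. Ccl5 (RANTES) had 15.1, 60.2 and 23.7 normalized counts in control, 378, 684 and 556 in LATS1/2-KO and 7208, 2693 and 1705 in LATS1/2-Sox9-KO libraries. The 3 groups were fully separated. Ccl5 was 16.2-fold higher (log2FC 4.02 ± 0.64, adjusted p = 0.000475) in the LATS1/2-KO-labelled libraries (4.79 without control library 2) and 116-fold higher (log2FC 6.86 ± 0.70, adjusted p = 2.33e-05) in those labelled LATS1/2-Sox9-KO (7.64 without control library 2, 6.05 without LATS1/2-Sox9-KO library 1). Ccl5 was also 7.17-fold higher (log2FC 2.84 ± 0.55, adjusted p = 0.019) with Sox9 targeted as well. This call was lost without LATS1/2-KO library 3 (2.86, adjusted p = 0.0741) or LATS1/2-Sox9-KO library 2 (3.06, adjusted p = 0.0513), and the value was 2.04 without LATS1/2-Sox9-KO library 1. Ccl2 (MCP-1), the main ligand of CCR2 on monocytes, had 30.3, 31.8 and 11.2 (control), 240, 585 and 705 (LATS1/2-KO) and 641, 551 and 475 (LATS1/2-Sox9-KO) normalized counts. Every targeted library was above every control library, and Ccl2 was 20.7-fold higher (log2FC 4.37 ± 0.48, adjusted p = 4.91e-05) and 22.5-fold higher (log2FC 4.49 ± 0.48, adjusted p = 3.37e-05) in the groups labelled LATS1/2-KO and LATS1/2-Sox9-KO, with 0.12 ± 0.40 (adjusted p = 0.894) between them.

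Ccl9 (MIP-1 gamma), a CCR1 ligand, had 68.6, 34.1 and 27.4 normalized counts in control, 652, 742 and 608 in LATS1/2-KO and 445, 492 and 490 in LATS1/2-Sox9-KO libraries. It was 15.3-fold higher (log2FC 3.94 ± 0.32, adjusted p = 8.72e-06) and 10.9-fold higher (log2FC 3.45 ± 0.32, adjusted p = 1.21e-05) against control, with targeted libraries above all controls. Ccl6, its neighbour on chromosome 11, had 66.3, 17 and 36.2 (control), 177, 307 and 228 (LATS1/2-KO) and 175, 128 and 197 (LATS1/2-Sox9-KO) normalized counts, and was 5.95-fold higher (log2FC 2.57 ± 0.45, adjusted p = 0.000882, and a log2FC of 3.16 without control library 1) and 4.18-fold higher (log2FC 2.06 ± 0.45, adjusted p = 0.0028, and a log2FC of 2.65 without that library). The remaining genes of this class were at low counts. Ccl7 ranged from 2.49 to 8.14 normalized counts in control and from 14.9 to 74.2 in the targeted libraries, and was 5.32-fold higher (log2FC 2.41 ± 0.75, adjusted p = 0.0201) in those labelled LATS1/2-KO and 8.2-fold higher (log2FC 3.04 ± 0.76, adjusted p = 0.00605) in those labelled LATS1/2-Sox9-KO. Without control library 1 these values were 3.06 and 3.68, and the second was 2.21 without LATS1/2-Sox9-KO library 1. The first call ended without control library 2 (2.23, adjusted p = 0.0678) or 3 (2.12, adjusted p = 0.065) or LATS1/2-KO library 2 (2.02, adjusted p = 0.0676). Ccl8 had no count in the control libraries or in 1 library labelled LATS1/2-KO, and 8.34 to 16 normalized counts in the other 5. It was at least 2.46-fold and at least 3.18-fold higher than the floor of 3 counts per control library (adjusted p = 0.0281 and 0.0197). The first call was lost without any 1 control library (adjusted p = 0.0592, 0.0609 and 0.0555) or without LATS1/2-KO library 1 (adjusted p = 0.0666, with a fitted log2 fold change of 5.40 in place of 6.14) or 2 (adjusted p = 0.058). That Ccl8 call was also lost with the library number as a block and with only the 2 groups compared. Ccl4, at 0 to 26 normalized counts, was 7.65-fold higher (log2FC 2.94 ± 0.94, adjusted p = 0.0214, and a log2FC of 3.85 without control library 1) in the LATS1/2-Sox9-KO-labelled libraries than in control and did not pass the test in those labelled LATS1/2-KO. This call ended without control library 2 (2.36, adjusted p = 0.0532) or 3 (2.98, adjusted p = 0.0539) or LATS1/2-Sox9-KO library 1 (2.66, adjusted p = 0.0581) or 3 (2.86, adjusted p = 0.051). The control libraries held 6 reads of Ccl4, and the ratios of pooled counts to control were 4.52 (95% counting interval 1.88 to 13.2) and 8.12 (3.52 to 23). The log2 fold change of Ccl4 between the targeted genotypes, 0.78 ± 0.79 (adjusted p = 0.62), did not pass the test. Ccl11 (eotaxin), at 2.73 to 23.3 normalized counts, passed the test in no comparison.

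Among the CC chemokines of resting epithelium and lymphoid tissue, 5 of 10 had enough counts. Ccl20, the CCR6 ligand that epithelium makes, had 9.31, 7.96 and 15 normalized counts in control, 138, 134 and 150 in LATS1/2-KO and 232, 138 and 134 in LATS1/2-Sox9-KO libraries. The targeted libraries were all above the control libraries, and Ccl20 was 13-fold higher (log2FC 3.70 ± 0.37, adjusted p = 2.74e-05) and 15.5-fold higher (log2FC 3.96 ± 0.37, adjusted p = 1.45e-05) in the groups labelled LATS1/2-KO and LATS1/2-Sox9-KO. Ccl28, a mucosal chemokine that draws plasma cells into the lactating gland, was at 11.4 to 19.8 normalized counts in control, 23 to 37.2 in the LATS1/2-KO-labelled libraries and 42.8 to 137 in those labelled LATS1/2-Sox9-KO. It was 5.98-fold higher (log2FC 2.58 ± 0.50, adjusted p = 0.00144) in the last group, while the log2 fold change in the LATS1/2-KO-labelled libraries was 1.04 ± 0.49 (adjusted p = 0.101) and that between the targeted genotypes 1.54 ± 0.47 (adjusted p = 0.0821). Ccl27a, an epithelial ligand of CCR10, had 241, 157 and 215 (control), 106, 130 and 99.3 (LATS1/2-KO) and 108, 75.7 and 57.3 (LATS1/2-Sox9-KO) normalized counts. The targeted libraries were all below the controls, and Ccl27a was 2.54-fold lower (log2FC -1.35 ± 0.30, adjusted p = 0.00352) in those labelled LATS1/2-Sox9-KO, with -0.87 ± 0.30 (adjusted p = 0.0314) in those labelled LATS1/2-KO. Its near-identical copy Ccl27b had no counts, and reads that fit both copies would not have been counted, since only uniquely aligned reads were. Il11ra1, which shares 8 exon bases with Ccl27a, was at 1783 to 2405 normalized counts in control and 368 to 488 in the targeted libraries. Ccl25, at 257 to 460 normalized counts, and Ccl17, at 2.49 to 22.8, passed the test in no comparison. Ccl25 shares 204 exon bases with Elavl1, which was far higher, at 4046 to 5168 normalized counts.

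The interleukin-1 family holds leaderless cytokines that signal as alarms. Il1a, which acts on IL1R1 and can be released from damaged epithelium, had 1.16, 0 and 4.99 normalized counts in control, 16, 13.5 and 25.5 in LATS1/2-KO and 188, 247 and 182 in LATS1/2-Sox9-KO libraries. No group overlapped another. Il1a was 8.75-fold higher (log2FC 3.13 ± 0.70, adjusted p = 0.00356) in the LATS1/2-KO-labelled libraries and 97.5-fold higher (log2FC 6.61 ± 0.68, adjusted p = 2.58e-05) in those labelled LATS1/2-Sox9-KO, values that were 4.72 and 8.21 without control library 3, and 11.1-fold higher (log2FC 3.48 ± 0.53, adjusted p = 0.00825) between the targeted genotypes. The control libraries held 5 reads of Il1a in all, so the folds against control are imprecise. As ratios of pooled counts they were 9.31 (95% interval 3.77 to 29.7) and 104 (44.3 to 321), intervals from an exact binomial method that cover counting error only. Il1a shares 222 exon bases with Gm14023, which was at 48.9 to 83 normalized counts in control, above Il1a, and at 4.56 to 80.6 in the targeted libraries. Il33, a nuclear alarm cytokine for ST2 (Il1rl1), had 1225, 3886 and 11280 (control), 5213, 67.7 and 93.8 (LATS1/2-KO) and 255, 196 and 533 (LATS1/2-Sox9-KO) normalized counts. Control and targeted libraries overlapped for the group labelled LATS1/2-KO, in which the log2 fold change was -1.61 ± 1.37 (adjusted p = 0.344). That value rested on library 1, which was far above the others and within the control range. Libraries 2 and 3 of the group lay below all control libraries. In the LATS1/2-Sox9-KO-labelled libraries, Il33 was 16.6-fold lower (log2FC -4.06 ± 1.52, adjusted p = 0.0422). The Il33 call was lost without control library 2 (-4.25, adjusted p = 0.0603) or 3 (-2.95, adjusted p = 0.13) and without LATS1/2-Sox9-KO library 1 (-3.89, adjusted p = 0.111), 2 (-3.78, adjusted p = 0.12) or 3 (-4.60, adjusted p = 0.074). Among control libraries Il33 had the order of Dcn as well, while Col1a1, Col1a2 and Col3a1 of the same fibroblast list were called higher in both targeted groups, and the part of fibroblast RNA was not tested here either. Il18, a partner of IL-12 in activating NK cells, was at 76.8 to 125 normalized counts in control, 3.39 to 37.1 in the LATS1/2-KO-labelled libraries and 23.9 to 50.1 in those labelled LATS1/2-Sox9-KO. It was 5.5-fold lower (log2FC -2.46 ± 0.70, adjusted p = 0.0132) in the first of these (-3.70 without LATS1/2-KO library 1), with -1.32 ± 0.67 (adjusted p = 0.115) in the second. Il1b, at 8.73 to 67.1 normalized counts, had log2 fold changes of 1.36 ± 0.70 (adjusted p = 0.126) and 1.52 ± 0.70 (adjusted p = 0.0887).

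Il7 and Il15 use the common gamma chain receptor and sustain lymphocytes, and of the 6 interleukins of this class they were the ones with enough counts. Il15, which supports NK and memory T cells, had 239, 282 and 237 normalized counts in control, 289, 482 and 274 in LATS1/2-KO and 980, 1075 and 928 in LATS1/2-Sox9-KO libraries. The LATS1/2-Sox9-KO-labelled libraries were above all 6 others, Il15 being 3.94-fold higher (log2FC 1.98 ± 0.23, adjusted p = 6.19e-05) against control and 2.85-fold higher (log2FC 1.51 ± 0.23, adjusted p = 0.00818) against LATS1/2-KO, whose own log2 fold change against control was 0.47 ± 0.23 (adjusted p = 0.11). Il7 had 89.6, 109 and 39.9 (control), 425, 348 and 292 (LATS1/2-KO) and 870, 1129 and 1128 (LATS1/2-Sox9-KO) normalized counts. The 3 groups did not overlap, and Il7 was 4.44-fold higher (log2FC 2.15 ± 0.33, adjusted p = 0.000361) and 13.1-fold higher (log2FC 3.71 ± 0.35, adjusted p = 1.35e-05) against control in the groups labelled LATS1/2-KO and LATS1/2-Sox9-KO. Gm16685, which shares 105 exon bases with Il7, was at 15 to 73.7 normalized counts. Il7 was 2.94-fold higher (log2FC 1.56 ± 0.31, adjusted p = 0.0213) between the targeted genotypes. This was not past the threshold without LATS1/2-KO library 2 (1.56, adjusted p = 0.0533) or 3 (1.43, adjusted p = 0.0824) or LATS1/2-Sox9-KO library 2 (1.52, adjusted p = 0.0806) or 3 (1.49, adjusted p = 0.0613). Il24, of the IL-10 family and a ligand of the IL-20 receptors on epithelium, had 15.1, 17 and 3.74 (control), 97.2, 141 and 182 (LATS1/2-KO) and 907, 630 and 507 (LATS1/2-Sox9-KO) normalized counts, again with separated groups. It was 11.5-fold higher (log2FC 3.52 ± 0.47, adjusted p = 0.000153), 55.8-fold higher (log2FC 5.80 ± 0.49, adjusted p = 7.96e-06) and, between the targeted genotypes, 4.86-fold higher (log2FC 2.28 ± 0.40, adjusted p = 0.0134), the last call being lost without LATS1/2-Sox9-KO library 2 (2.35, adjusted p = 0.0521).

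Of the interleukin-6 and interleukin-12 families, Il23a, the p19 subunit of IL-23, had 268, 298 and 133 normalized counts in control, 1804, 1201 and 1807 in LATS1/2-KO and 887, 1136 and 1199 in LATS1/2-Sox9-KO libraries. The targeted libraries were all above the controls, and Il23a was 6.87-fold higher (log2FC 2.78 ± 0.30, adjusted p = 4.46e-05) and 4.6-fold higher (log2FC 2.20 ± 0.30, adjusted p = 0.00014) in the groups labelled LATS1/2-KO and LATS1/2-Sox9-KO. Il12b, which encodes the p40 chain that IL-23 also needs, had 0 counts in all 9 libraries, and Il12a had at most 7. Il6 was at 87.3 to 100 normalized counts in control, 7.01 to 27.1 in the LATS1/2-KO-labelled libraries and 43.7 to 56.5 in those labelled LATS1/2-Sox9-KO. It was 5.41-fold lower (log2FC -2.44 ± 0.46, adjusted p = 0.00131) in the first of these, with -0.93 ± 0.43 (adjusted p = 0.0892) in the second and 1.51 ± 0.45 (adjusted p = 0.0787) between them. Il27, the p28 subunit of IL-27, was at 29.1 to 122 normalized counts in control and 6.01 to 27.8 in the targeted libraries, and was 5.11-fold lower (log2FC -2.35 ± 0.68, adjusted p = 0.0137) and 3.39-fold lower (log2FC -1.76 ± 0.66, adjusted p = 0.0419). Apobr, which shares 103 exon bases with Il27, was higher, at 135 to 239 normalized counts in control and 210 to 786 in the targeted libraries. Both Il27 calls ended without control library 3 (-1.53, adjusted p = 0.0767, and -0.92, adjusted p = 0.256), and the second also without LATS1/2-KO library 3 (-1.76, adjusted p = 0.0542) or LATS1/2-Sox9-KO library 2 (-1.45, adjusted p = 0.134) or 3 (-1.77, adjusted p = 0.0983). The second Il27 call was also lost with the library number as a block. Il11, at 53.8 to 151 normalized counts, passed the test in no comparison. In the interleukin-17 family, Il17d had 15.1, 22.7 and 17.5 (control), 38.1, 141 and 178 (LATS1/2-KO) and 115, 109 and 106 (LATS1/2-Sox9-KO) normalized counts and was 6.42-fold higher (log2FC 2.68 ± 0.52, adjusted p = 0.00165) and 5.93-fold higher (log2FC 2.57 ± 0.52, adjusted p = 0.00192), with targeted libraries above all controls. Il17c, an epithelial cytokine at 3.98 to 60.2 normalized counts, passed the test in no comparison.

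The colony-stimulating factors govern the growth of macrophages and granulocytes, and Il34 is the second ligand of the Csf1 receptor. Csf1 had 2828, 2193 and 1468 normalized counts in control, 7534, 9038 and 12841 in LATS1/2-KO and 17150, 8619 and 6092 in LATS1/2-Sox9-KO libraries. The targeted libraries were all above the controls, and Csf1 was 4.53-fold higher (log2FC 2.18 ± 0.39, adjusted p = 0.000932) and 4.91-fold higher (log2FC 2.30 ± 0.39, adjusted p = 0.000618) in the groups labelled LATS1/2-KO and LATS1/2-Sox9-KO, with 0.12 ± 0.37 (adjusted p = 0.893) between them. Il34 had 38.4, 19.3 and 46.1 (control), 1572, 1355 and 1639 (LATS1/2-KO) and 819, 1141 and 1089 (LATS1/2-Sox9-KO) normalized counts, without overlap with control. It was 44-fold higher (log2FC 5.46 ± 0.30, adjusted p = 1.51e-06) and 29.4-fold higher (log2FC 4.88 ± 0.30, adjusted p = 1.39e-06), with -0.58 ± 0.24 (adjusted p = 0.182) between the targeted genotypes. A transcript on the other strand, Gm15895, shares 75 bases of exon with Il34 and was at 0 in control, at 33 to 56.1 in the LATS1/2-KO-labelled libraries and at 11.1 to 31.9 normalized counts in those labelled LATS1/2-Sox9-KO. Csf2 (GM-CSF) had 0, 2.27 and 8.73 (control), 87.2, 42.3 and 79.3 (LATS1/2-KO) and 484, 146 and 116 (LATS1/2-Sox9-KO) normalized counts, with every targeted library above control. It was 18.8-fold higher (log2FC 4.23 ± 0.89, adjusted p = 0.00261, and a log2FC of 5.76 without control library 3) and 67.2-fold higher (log2FC 6.07 ± 0.91, adjusted p = 0.000288, and a log2FC of 7.62 without control library 3, 5.16 without LATS1/2-Sox9-KO library 1). The control libraries held 9 reads of Csf2, and the ratios of pooled counts had 95% counting intervals of 9.99 to 42.8 and 37.1 to 155. Csf3 (G-CSF), which drives neutrophil production, went the other way, with 3093, 4198 and 2155 (control), 754, 649 and 948 (LATS1/2-KO) and 1478, 886 and 839 (LATS1/2-Sox9-KO) normalized counts. All targeted libraries were below the controls, and Csf3 was 4.02-fold lower (log2FC -2.01 ± 0.29, adjusted p = 0.000262) and 2.95-fold lower (log2FC -1.56 ± 0.29, adjusted p = 0.00102).

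The other 32 members had under 10 counts in at least 7 of the 9 libraries and are given as not detected at this depth. Of these, 13 had 0 counts in all libraries, namely Ccl1, Ccl19, its copies Ccl19-ps1 and Ccl19-ps3, Ccl21a, Ccl21b, Ccl26, Ccl27b, Il12b, Il17a, Il20, Il3 and Il9. A count of 0 allows up to 3 counts in a library, which covers counting error only, and reads of near-identical copies such as Ccl21a and Ccl21b may not align uniquely. Cxcl13, the B cell attractant, had raw counts of 2, 17 and 46 in the control libraries and at most 8 in the targeted ones. Ccl3 had 3, 3 and 1 counts in the control libraries, 4, 9 and 7 in those labelled LATS1/2-KO and 9, 21 and 13 in those labelled LATS1/2-Sox9-KO. The highest count of any library was 16 for Il16 and Il17b, 14 for Il5, 13 for Ccl12 and Il25, 12 for Ccl22, 11 for Il19, 10 for Il17f, 9 for Il2, 7 for Il12a and Il13, 6 for Il31 and Il4, 5 for Il21, 4 for Il22, 2 for Ccl24 and 1 for Il10. The T helper cell cytokines Il2, Il4, Il5, Il13, Il17a and Il21 were therefore below the minimum.

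Receptors were read from lists of the same pathways. Of 17 chemokine receptors, 4 had enough counts, 1 rose in the LATS1/2-KO-labelled libraries, and 1 rose and 1 fell in those labelled LATS1/2-Sox9-KO. The gene that rose in both was Ccr1, at 1.25 to 3.49 normalized counts in control and 12 to 46.4 in the targeted libraries, so that it entered through the targeted groups. The gene that fell was Cxcr4, the Cxcl12 receptor, with 606, 694 and 501 normalized counts in control, 502, 433 and 647 in LATS1/2-KO and 289, 197 and 226 in LATS1/2-Sox9-KO libraries. It was 2.53-fold lower (log2FC -1.34 ± 0.23, adjusted p = 0.000618) in the LATS1/2-Sox9-KO-labelled libraries, which all lay below the other 6, than in control, and 2.22-fold lower (log2FC -1.15 ± 0.23, adjusted p = 0.0195) than in those labelled LATS1/2-KO. The latter call ended without LATS1/2-KO library 3 (-0.98, adjusted p = 0.0709) or LATS1/2-Sox9-KO library 2 (-1.01, adjusted p = 0.0935) or 3 (-1.12, adjusted p = 0.065). Of 5 atypical receptors, which bind chemokines without G protein signalling, 3 had enough counts and a different one was called lower in each comparison with control. Ccrl2 was called in the LATS1/2-KO comparison, a call that ended without control library 1 or 2 or any 1 LATS1/2-KO library (log2 fold change -1.22 to -0.98). Ackr1 was called in the LATS1/2-Sox9-KO comparison, a call that ended without control library 1 or LATS1/2-Sox9-KO library 1 or 2 (-1.47 to -1.26). Of 36 interleukin receptor genes, 30 had enough counts, with 8 higher and 10 lower in the LATS1/2-KO-labelled libraries and 7 higher and 8 lower in those labelled LATS1/2-Sox9-KO. Of all genes tested, 17.1% were called higher and 17.4% lower in the first comparison and 17.8% and 19.5% in the second. Il7r and Il12rb2 reached 10 counts in no control library and so entered through the targeted groups. Il12rb2 was called higher in both comparisons and Il7r in the first alone. For Il7r the LATS1/2-KO-labelled libraries had 48.1, 4.23 and 0 normalized counts (adjusted p = 0.0496), so that call rested on library 1. Il1rl1 (ST2), the Il33 receptor, had 5015, 11956 and 9246 (control), 253, 25.4 and 41 (LATS1/2-KO) and 344, 427 and 321 (LATS1/2-Sox9-KO) normalized counts. It was 83.3-fold lower (log2FC -6.38 ± 0.80, adjusted p = 0.000103, and a log2FC of -8.04 without LATS1/2-KO library 1) and 24-fold lower (log2FC -4.58 ± 0.72, adjusted p = 0.000389), all targeted libraries being below the controls. Il1rap, the coreceptor that ST2 and IL1R1 share, had 476, 591 and 254 (control), 2167, 4412 and 3142 (LATS1/2-KO) and 2210, 3178 and 3343 (LATS1/2-Sox9-KO) normalized counts and was 7.35-fold higher (log2FC 2.88 ± 0.35, adjusted p = 8.44e-05) and 6.6-fold higher (log2FC 2.72 ± 0.35, adjusted p = 9.64e-05). Il6ra was 6.36-fold lower (log2FC -2.67 ± 0.32, adjusted p = 8.5e-05) and 8.9-fold lower (log2FC -3.15 ± 0.33, adjusted p = 2.78e-05).

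Of 4 receptor genes of colony-stimulating factors, 3 had enough counts. Csf1r, the receptor of Csf1 and Il34 and a marker of macrophages, had 208, 128 and 140 normalized counts in control, 2802, 2372 and 1751 in LATS1/2-KO and 2712, 3120 and 3871 in LATS1/2-Sox9-KO libraries. It was 14.5-fold higher (log2FC 3.86 ± 0.26, adjusted p = 3.26e-06) and 20.4-fold higher (log2FC 4.35 ± 0.26, adjusted p = 1.34e-06) against control, with no overlap. Csf2ra, the ligand-binding chain for GM-CSF, was 3.4-fold lower (log2FC -1.77 ± 0.22, adjusted p = 0.000109) and 3.23-fold lower (log2FC -1.69 ± 0.22, adjusted p = 0.000119). Of 8 genes that restrain these cytokines, 5 had enough counts, and Il18bp, the soluble trap of IL-18, had 519, 638 and 564 (control), 219, 396 and 318 (LATS1/2-KO) and 1763, 927 and 666 (LATS1/2-Sox9-KO) normalized counts. Il18bp was 3.59-fold higher (log2FC 1.84 ± 0.35, adjusted p = 0.0171) in the LATS1/2-Sox9-KO-labelled libraries than in those labelled LATS1/2-KO. This call was lost without LATS1/2-KO library 3 (1.86, adjusted p = 0.0653) or LATS1/2-Sox9-KO library 2 (1.98, adjusted p = 0.0513).

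The NF-kB list holds 19 genes of the transcription factors, inhibitors and early targets of that pathway, which drives many of these cytokines in other settings. All 19 had enough counts, and 10 fell in the LATS1/2-KO-labelled libraries and none was called higher. Of these 10, Nfkbie lost its call without control library 1 (-1.18, adjusted p = 0.0511). The median over the list was -1.28 on the log2 scale, beside 0.04 for all genes. In those labelled LATS1/2-Sox9-KO 10 fell and 1 rose, with a median of -1.22 beside 0.02. Of all genes tested, 17.4% and 19.5% were called lower in these comparisons. The gene that rose was Tnfaip3, a feedback inhibitor of the pathway, 2.45-fold higher (log2FC 1.29 ± 0.27, adjusted p = 0.002) in the LATS1/2-Sox9-KO-labelled libraries, though not past the fold threshold without library 1 of that group (0.86). Against control, Tnfaip3 in the LATS1/2-KO-labelled libraries had a log2 fold change of 0.99 ± 0.26 (adjusted p = 0.00954) and Nfkbib one of 0.44 ± 0.13 (adjusted p = 0.0126), past the adjusted p but not the fold threshold. Bcl3, a nuclear coactivator of the NF-kB p50 and p52 subunits, had 9336, 8114 and 7489 normalized counts in control, 751, 471 and 697 in LATS1/2-KO and 900, 525 and 668 in LATS1/2-Sox9-KO libraries. It was 13-fold lower (log2FC -3.70 ± 0.24, adjusted p = 3.1e-06) and 11.9-fold lower (log2FC -3.57 ± 0.24, adjusted p = 2.29e-06), the targeted libraries all lying below the controls. Nfkb1 was 3.08-fold lower (log2FC -1.62 ± 0.20, adjusted p = 9.32e-05) and 3.58-fold lower (log2FC -1.84 ± 0.20, adjusted p = 3.63e-05), and Rela, the p65 subunit, was 3.29-fold lower (log2FC -1.72 ± 0.18, adjusted p = 4.13e-05) and 2.91-fold lower (log2FC -1.54 ± 0.18, adjusted p = 6.41e-05). Birc3, an NF-kB target, was 3.61-fold lower (log2FC -1.85 ± 0.22, adjusted p = 6.81e-05) and 3.49-fold lower (log2FC -1.80 ± 0.22, adjusted p = 6.63e-05). Of 12 genes that process or release cytokines, 10 had enough counts. Casp1, which cleaves the precursors of IL-1 beta and IL-18, had 200, 220 and 150 (control), 493, 460 and 347 (LATS1/2-KO) and 810, 1228 and 995 (LATS1/2-Sox9-KO) normalized counts and was 2.28-fold higher (log2FC 1.19 ± 0.23, adjusted p = 0.00154) and 5.31-fold higher (log2FC 2.41 ± 0.24, adjusted p = 1.84e-05). Casp1 was 2.33-fold higher (log2FC 1.22 ± 0.23, adjusted p = 0.0155) between the targeted genotypes, not past the threshold without LATS1/2-KO library 3 (1.09, adjusted p = 0.0606) or LATS1/2-Sox9-KO library 2 (1.08, adjusted p = 0.0704). Adam10, a protease that sheds Cx3cl1 and Cxcl16 from the membrane, was 3.04-fold lower (log2FC -1.60 ± 0.22, adjusted p = 0.000166) and 3.83-fold lower (log2FC -1.94 ± 0.22, adjusted p = 4.49e-05). Gsdmd, whose pores release IL-1 family cytokines, was 4.72-fold lower (log2FC -2.24 ± 0.48, adjusted p = 0.00279) in the LATS1/2-KO-labelled libraries. Its log2 fold changes of -0.54 ± 0.45 (adjusted p = 0.332) in those labelled LATS1/2-Sox9-KO and 1.70 ± 0.47 (adjusted p = 0.0626) between the targeted genotypes did not pass the test.

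Of 17 cytokines of related function outside the naming pattern, 14 had enough counts, with 4 higher and 3 lower in the LATS1/2-KO-labelled libraries and 5 higher and 2 lower in those labelled LATS1/2-Sox9-KO. Of all genes, 17.1% and 17.4% were called higher and lower in the first comparison and 17.8% and 19.5% in the second. Ppbp and Osm, called higher in both, reached 10 counts in no control library and so entered through the targeted groups. Osm had 1.16, 7.96 and 1.25 normalized counts in control and 60.1, 25.4 and 2.73 in LATS1/2-KO libraries, which overlapped. Ppbp, which encodes Cxcl7 and is an ELR chemokine under another symbol, had 2.33, 0 and 2.49 normalized counts in control, 55.1, 102 and 101 in LATS1/2-KO and 121, 395 and 428 in LATS1/2-Sox9-KO libraries. Its targeted libraries were all above control, and it was called higher in both groups (adjusted p = 0.000179 and 2.53e-05). The control libraries held 4 reads of Ppbp in all, so its folds are imprecise. The ratios of pooled counts to control were 55.4 (95% interval 21.4 to 205) and 199 (77.5 to 732), intervals that cover counting error only. Tslp, an epithelial cytokine of type 2 immunity, was 10.7-fold higher (log2FC 3.43 ± 0.57, adjusted p = 0.000612) and 11.6-fold higher (log2FC 3.53 ± 0.57, adjusted p = 0.000458). Spp1 (osteopontin) was 20.2-fold higher (log2FC 4.34 ± 0.72, adjusted p = 0.000606) and 5.48-fold higher (log2FC 2.45 ± 0.67, adjusted p = 0.00986), values that were 4.93 and 3.04 without control library 2. Flt3l, the growth factor of dendritic cells, was 5.55-fold lower (log2FC -2.47 ± 0.29, adjusted p = 7.25e-05) in the LATS1/2-KO-labelled libraries than in control and 3.01-fold higher (log2FC 1.59 ± 0.28, adjusted p = 0.0143) in those labelled LATS1/2-Sox9-KO than in those labelled LATS1/2-KO. The second call was lost without LATS1/2-Sox9-KO library 2 (1.62, adjusted p = 0.0534).

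Leukocytes make many of these factors, so their markers were read beside the results. The macrophage list of 15 genes summed to 25.6, 20.7 and 19.1 CPM in the control libraries, to 132, 83.3 and 55.3 in those labelled LATS1/2-KO and to 94, 84.6 and 126 in those labelled LATS1/2-Sox9-KO, and 7 and 10 of the 15 were called higher against control, where 17.1% and 17.8% of all genes tested were. Its most abundant gene over all libraries was Csf1r, at 2.42 to 3.81 CPM in control and 33.5 to 71.3 in the targeted libraries. In control, Cd68, Lyz2 and Mpeg1 had higher means (404, 233 and 183 normalized counts) than Csf1r (159). Without Csf1r the sums were 21.8, 18.3 and 16.5 CPM in control, 76.4, 38 and 21.8 in the LATS1/2-KO-labelled libraries and 46.8, 28.1 and 55.2 in those labelled LATS1/2-Sox9-KO, so that LATS1/2-KO library 3 was at the level of control library 1. Cd68 was not called (log2 fold changes -0.37 and -0.38), nor was Lyz2 (0.87 and 0.35). The complement gene C1qb was 16.4-fold higher (log2FC 4.04 ± 0.77, adjusted p = 0.00139, and a log2FC of 3.19 without LATS1/2-KO library 1) and 16.5-fold higher (log2FC 4.04 ± 0.77, adjusted p = 0.00124, and a log2FC of 3.35 without LATS1/2-Sox9-KO library 3), and none of the 15 was at 0 in a whole group. The list of 12 genes common to leukocytes summed to 176 to 192 CPM in control, 42.9 to 57.8 in the LATS1/2-KO-labelled libraries and 32.2 to 38.3 in those labelled LATS1/2-Sox9-KO. That sum was led by Lcp1, at 122 to 137 CPM in control and 12.4 to 41 in the targeted libraries, and by Ptpn6. Of its 10 genes with enough counts, 4 (Lcp1, Ptpn6, Vav1 and Arhgap30) and 3 (Lcp1, Ptpn6 and Vav1) were called lower, beside 17.4% and 19.5% of all genes, and none higher. The log2 fold changes of Ptprc (0.89), Cd53 (1.18), Coro1a (0.94), Laptm5 (0.64) and Cd52 (0.13) in the LATS1/2-KO-labelled libraries were above 0 and did not pass the test. For each of these genes LATS1/2-KO library 1 was the highest of its group. Cd53 had 94.2, 31.3 and 17.3 and Cd52 36.1, 9.31 and 8.2 normalized counts there, with control means of 20.8 and 16.1. The calls of Vav1 and Arhgap30 were near the threshold. In the LATS1/2-KO comparison both ended without any 1 control library or LATS1/2-KO library 2 or 3, and Arhgap30 also without LATS1/2-Sox9-KO library 2 or 3 (-1.68 to -1.26 for Vav1 and -1.18 to -0.80 for Arhgap30). In the LATS1/2-Sox9-KO comparison Vav1 lost its call without control library 2 or LATS1/2-Sox9-KO library 1 or 2 (-1.67 to -1.50). The part of macrophage RNA in the rise of Csf1r, the CC chemokines and the other members was not tested, and in sorted bulk samples fewer or more cells of a type and less or more RNA per cell cannot be told apart.

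Markers of the other leukocytes were near 0. The neutrophil list of 12 genes summed to at most 1.36 CPM in any library, led by S100a8 (at most 0.812), with Camp at 0 counts in all libraries and Ly6g, Ngp and Retnlg at 0 in the control libraries and in those labelled LATS1/2-Sox9-KO. S100a8 was the 1 gene of the list with enough counts. Against control its log2 fold changes were 1.20 ± 0.47 (adjusted p = 0.0529), not called, and 1.46 ± 0.47 (adjusted p = 0.0232), called higher, where 17.8% of all genes were. The T and NK cell list of 12 genes summed to at most 3.61 CPM, led by Lck (at most 3.26), with Cd3e and Ncr1 at 0 counts throughout. The B cell list of 8 genes stayed at or under 1.65 CPM, led by Cd79a (at most 1.25), with Ms4a1 at 0. The mast cell and basophil list of 8 genes reached 1.52 CPM, led by Hdc, with Cpa3, Cma1, Fcer1a, Mcpt4 and Tpsb2 at 0 counts. The red cell list of 6 genes was at most 2.74 CPM, led by Alas2 (at most 2.33).

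Stromal lists were uneven between libraries. The fibroblast list of 8 genes summed to 44.8, 82.3 and 174 CPM in the control libraries, 201, 49.8 and 62.1 in those labelled LATS1/2-KO and 50.9, 73.8 and 139 in those labelled LATS1/2-Sox9-KO, led by Dcn in the control libraries as given above. Against control, 4 of the 8 were called higher (Col1a1, Col1a2, Col3a1 and Lum) and Dcn lower in the LATS1/2-KO-labelled libraries. The LATS1/2-Sox9-KO-labelled libraries had Col1a1, Col1a2 and Col3a1 called higher and Dcn and Pdgfra lower. The shares over all genes were 17.1% higher and 17.4% lower in the first comparison and 17.8% and 19.5% in the second. In the LATS1/2-KO comparison the call of Lum ended without control library 1 or 2, LATS1/2-KO library 1 or LATS1/2-Sox9-KO library 2 (1.56 to 2.61), and that of Dcn without control library 2 or 3, any 1 LATS1/2-KO library or LATS1/2-Sox9-KO library 2 (-2.59 to -1.43). LATS1/2-KO library 1 was the highest for this list and for Il33 within its group. The endothelial list of 8 genes lay between 5.65 and 17.1 CPM, led over all libraries by Pecam1 (1.07 to 8.49). In the LATS1/2-Sox9-KO-labelled libraries Kdr averaged 261 normalized counts and Pecam1 202. Against control, Kdr was called higher (log2 fold changes 2.43 and 3.36) and Egfl7 lower (-1.47 and -1.61). Tek was called lower in the LATS1/2-Sox9-KO comparison alone (-1.49). The first Kdr call ended without LATS1/2-KO library 3 (2.03), and the Kdr values were 3.05 and 4.01 without control library 3. The adipocyte list of 6 genes was at 5.17, 3.51 and 5.41 CPM in the control libraries, 9.68, 70.3 and 33.6 in those labelled LATS1/2-KO and 1.5, 22.8 and 20.3 in those labelled LATS1/2-Sox9-KO, led by Fabp4. Of its genes, 5 and 3 were called higher against control and none lower, beside the same shares over all genes. Adipoq, Cidec, Lep and Retn had under 10 normalized counts in each control library. Without single libraries the calls of Adipoq and Cidec ended in both comparisons, and those of Fabp4 and Retn in the LATS1/2-KO comparison. The part of these cells in the members' values was not tested.

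**Figure D4:**
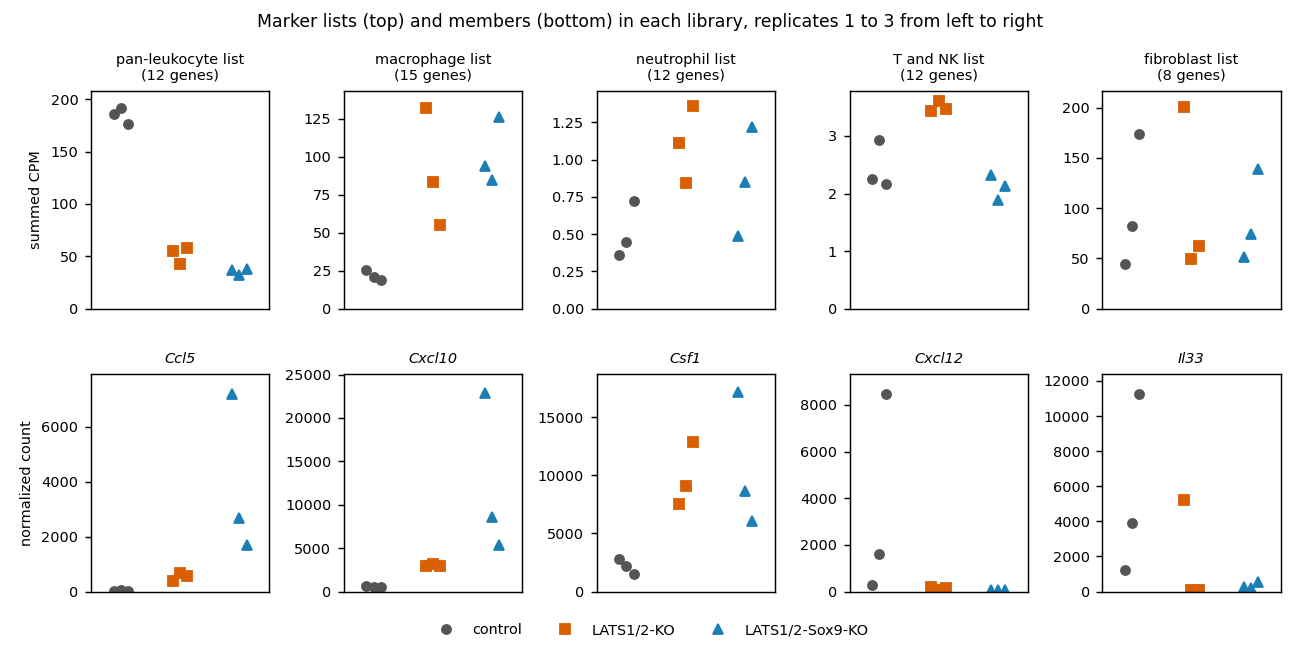
Summed CPM of 5 cell type marker lists (top, y axis) and normalized counts of Ccl5, Cxcl10, Csf1, Cxcl12 and Il33 (bottom, y axis), with 1 point per library in the order of the library numbers and each y axis starting at 0. The macrophage list, a sum led by Csf1r in the targeted libraries, is higher in all 6 of these than in control. The list common to leukocytes, a sum led by Lcp1 and Ptpn6, is lower in the targeted libraries, while Ptprc was not called. The neutrophil and the T and NK lists stay at or below 3.61 CPM.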

How the data were processed

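RNA was sequenced from EYFP+ live cells sorted by FACS, in 9 libraries. The authors aligned reads to mm10 with STAR 2.6.0c after FastQC 0.11.7, counted uniquely aligned proper pairs per Ensembl release 100 gene with featureCounts (Subread 1.6.2), left out mitochondrial genes, and deposited raw counts per gene and library, without normalization or pooling. The methods speak of counting on the same strand, while the kit named in the labels (TruSeq RNA v2) does not mark strand. Whether strand was used was therefore not settled here, and reads of genes that overlap on opposite strands may be mixed. Groups and library numbers came from the labels. Symbols, positions and exon lengths came from GENCODE M21 (Ensembl release 96, GRCm38), and promoters from RefSeq (GRCm38.p6).

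From the counts, edgeR 4.0.16 in R 4.3.3 was run with TMM factors and 1 quasi-likelihood model of the 3 group means over all 9 libraries, on the 19395 genes with at least 10 counts in at least 3 libraries. SE was taken as the absolute log2 fold change divided by the square root of F. TPM divided counts by the length of the merged exons. Bounds against groups without counts used a floor of 3 counts per library. Where the controls held 1 to 9 counts in all, ratios of pooled counts were given with exact binomial intervals (95%). The members, gene lists and motifs were chosen with earlier results of these data known. Members with enough counts are each named, and called members whose highest group mean reached 100 normalized counts are given by library. At most 4 called genes of each other list, with a group mean of at least 100 normalized counts, were taken for naming by fold change, and not all of these are printed. Further genes of the myoepithelial, fibroblast, leukocyte, NF-kB and receptor lists were named after their values were seen. One item of these lists is not reported here. The alternatives were DESeq2 1.42.0, RLE or upper-quartile factors, TMM without the 100 genes with the most counts, other filters, only the 2 groups compared, the library number as a block, a test against a fold change of 2 and each library left out. The statistical code was tested on simulated data. No library pair of a group was within sampling noise, with a chi-square per gene of 17.9 to 142. Precision is limited by n = 3 per group and, for members with few control counts, by depth as well. With 3 against 3 libraries an exact permutation test could not go below p = 0.1 and was not used.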

Additional observations from a re-analysis of the deposited data

How the results depend on the processing

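Under the 18 alternatives, 20 of the 29 members called in the libraries labelled LATS1/2-KO against control, 27 of 31 in those labelled LATS1/2-Sox9-KO and 0 of 9 between the targeted genotypes kept their call throughout. Leaving aside the test against a fold change of 2, these were 24, 28 and 2, the last being Il15 and Il1a. That test (glmTreat) called 15 members higher in the LATS1/2-KO comparison with control, beside 20 in the main fit. It called 5 members lower in each comparison with control, and none higher or lower between the targeted genotypes (0 and 0). It called 44, 49 and 1 of the pathway and cell type genes, beside 75, 81 and 13 in the main fit. Of all genes tested, the main fit called 17.1%, 17.8% and 1.57% higher and 17.4%, 19.5% and 2.16% lower. The counts for these lists were not compared with those shares. Between the targeted genotypes DESeq2 called 22 of the pathway and cell type genes and no filter beyond 1 count gave 23. With only the 2 groups compared no member was called lower (0). When each library was left out in turn, the members called higher between the targeted genotypes numbered from 2, without LATS1/2-Sox9-KO library 2, to 9, those called lower from 0 to 1, and the pathway and cell type genes from 3, without LATS1/2-Sox9-KO library 2, to 21, without LATS1/2-KO library 1. The cause of these shifts was not tested, apart from the smaller number of libraries.

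Where members, the targeted genes or Ptprc did not pass the test, the log2 fold change turned in sign in these cases. Each is given as the range over the libraries left out in turn. Other genes of the pathway and cell type lists are not covered here. Against control it was -2.27 to 0.21 for Il17c and -0.73 to 1.39 for Ptprc in the LATS1/2-KO group and -0.07 to 0.30 for Cxcl1 in the LATS1/2-Sox9-KO group. Between the targeted genotypes it was -0.32 to 0.89 for Ccl11, -0.79 to 0.08 for Ccl17, -0.21 to 0.43 for Ccl2, -0.03 to 0.40 for Ccl20, -0.22 to 0.03 for Ccl25, -0.19 to 1.03 for Ccl7, -0.21 to 1.11 for Ccl8, -0.40 to 0.39 for Csf1, -1.19 to 0.10 for Cxcl11, -1.0 to 0.07 for Cxcl9, -1.74 to 0.16 for Il17c, -0.54 to 0.29 for Il17d, -0.15 to 1.02 for Il1b, -3.01 to 2.02 for Il33, -0.04 to 0.27 for Lats2 and -0.44 to 1.69 for Ptprc.

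Library numbers are shared between groups by number only. Same-numbered libraries had correlated deviations from their group means of -0.0666 to 0.17, not all over 0.1, so the numbers were not taken as pairs. With the replicate block, 19, 23 and 8 members were called higher, and the value between the targeted genotypes was -0.03 for Csf1 and 0.07 for Il17d. Against control, the block ended the call of Ccl8 in the LATS1/2-KO group and that of Il27 in the LATS1/2-Sox9-KO group. The targeted exons and secreted protein were not measured, Lats2 counts went against the labels, and members under the count minimum were not tested. Library quality and the animals behind each library were not analysed here.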
